A study of Mus musculus with 4 samples.

Results

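The circular RNAs (circRNAs) of the mouse genes for voltage-gated and leak ion channels were measured in 4 brain libraries. A circRNA is a closed ring that forms when the end of an exon is spliced back to the start of the same or an earlier exon, and it is counted by reads across that back-splice junction. Members were the circRNAs of the deposited count table whose ends both lay on exon boundaries of a GENCODE M21 (GRCm38) protein-coding gene with a symbol beginning Kcn, Cacn, Trpc, Trpm or Trpv, or of the Scn or Hcn family, or Nalcn. The rule used position and gene symbol and no measured level. It found 329 of the 23980 circRNAs in the table, in 51 host genes of the 162 genes in the annotation with such a symbol. The other 111 genes had no circRNA of this kind in the table. A further 62 circRNAs with 1 end alone on a boundary of these hosts, with 397 counts in all, were left out.

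These channels set how a nerve cell fires. Potassium channels carry the current that brings the membrane back to rest and holds it there, calcium channels couple a change of voltage to calcium entry and transmitter release, and sodium channels carry the rising phase of the action potential. Nalcn is a sodium leak channel that depolarizes the resting membrane, Hcn channels open on hyperpolarization, and Trp channels are cation channels opened by lipids, calcium or other signals. When blood flow to the brain stops, the ion gradients that these channels draw on run down and calcium enters the cells.

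The 3 MCAO groups came from mice with permanent middle cerebral artery occlusion (MCAO), where a filament pushed up the vessel blocks it for good and causes an ischemic stroke. Core frontal is infarct core on the side of the frontal lobe, core occipital is infarct core on the side of the occipital lobe, and penumbra is the cortex around the core, all sampled 3 h after occlusion with the RNA of 6 mice mixed for each library. The fourth is sham, cortex of sham-operated mice from places matching core and penumbra. The sources used here do not give the strain, age or sex of the mice, or how many sham mice there were and when they were sampled. With 1 library for each group there is no replicate error, and every test compares 2 libraries of pooled RNA and not the conditions. The same sham library stands in each comparison with sham.

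The total circRNA count was between 83090 and 121393 per library. Levels are given as counts and as CPM, the count scaled to a library total of 1000000 circRNA counts, and 3 counts corresponded to between 24.7 and 36.1 CPM. Square brackets hold 95% intervals, which cover counting error only. They treat reads as independent molecules, and may be too narrow, since the reads went through PCR with no molecular identifier. Among lists of marker genes, 3 of 3 pan-neuronal genes were circRNA hosts, with a summed 1021, 1420, 1277 and 1051 CPM in core frontal, core occipital, penumbra and sham, and 4 of 7 genes of cortical neurons, with 643, 927, 851 and 591 CPM. Of 7 striatal markers 2 were hosts, at 338, 265, 176 and 178 CPM, and of 6 astrocyte markers 2, at 115, 72.2, 125 and 65.7 CPM. Of 4 endothelial markers 1 was a host, with 1, 1, 1 and 0 counts, and 0 of 6 oligodendrocyte, 0 of 2 precursor and 0 of 4 microglial markers were. One marker host was called, Cux1 of upper-layer cortical neurons, which was 1 of 2 cortical neuron hosts tested in that pair, with 42 counts in core occipital and 20 in sham (ratio 2.69 [1.55–4.84], adjusted Fisher's exact p of 0.0152, beside 1.15% of all hosts called). The part that the mix of cells plays in the values below was not tested, and in such bulk tissue fewer cells of a type and less RNA per cell cannot be told apart.

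The junctions of the most abundant members and of the members that differed between libraries are shown first, because the junction is the stretch that identifies a circle and sets it apart from the linear RNA of its gene. Each is 20 bases from the end of the circle's last exon, in lower case, followed by 20 bases from the start of its first exon, in capitals. They were read from the GENCODE M21 transcripts (GRCm38) on the strand of the host gene, and exons are numbered in the order of transcription. The counts cover the junction alone, so the exons inside a circle were not observed. Spliced lengths, exon numbers, coding bases and GC content assume every annotated exon between the 2 ends, from the matching transcript with the most exons.
Kcnj6 exon 3: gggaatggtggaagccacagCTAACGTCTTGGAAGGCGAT
Kcnt2 exons 4 to 13: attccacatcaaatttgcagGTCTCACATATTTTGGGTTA
Kcnt2 exons 4 to 8: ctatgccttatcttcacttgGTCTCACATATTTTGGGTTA
Kcnt2 exons 9 to 13: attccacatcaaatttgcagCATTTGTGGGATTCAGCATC
Trpc6 exons 4 to 10: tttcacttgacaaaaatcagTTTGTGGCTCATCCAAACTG
Kcnh5 exons 4 to 7: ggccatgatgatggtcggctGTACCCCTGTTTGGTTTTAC
Kcnh5 exons 4 to 6: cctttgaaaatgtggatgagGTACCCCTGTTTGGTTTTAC
Kcnh5 exons 2 to 6: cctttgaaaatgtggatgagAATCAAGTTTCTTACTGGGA
Nalcn exons 8 to 13: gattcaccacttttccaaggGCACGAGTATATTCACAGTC
The shared stretches show which circles use the same splice site. Kcnt2 exons 4 to 13 and exons 4 to 8 have the same capitals and differ in lower case, while Kcnt2 exons 4 to 13 and exons 9 to 13 share their lower case. The circles of Kcnh5 with exons 4 to 7 and exons 4 to 6 start at the same exon and close from different ends.

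Channel circles took a similar share of the circRNA counts in every library. It was 2.07% [1.99–2.16] in core frontal tissue, 1.97% [1.88–2.07] in core occipital tissue, 2.04% [1.95–2.13] in penumbra and 1.95% [1.87–2.04] in sham, on 2517, 1641, 1968 and 2081 counts. The ratio to sham was 1.06 [1.001–1.13] in core frontal tissue, 1.01 [0.947–1.08] in core occipital tissue and 1.05 [0.983–1.11] in penumbra. With TMM scaling the ratio of core frontal to sham was 1.04 [0.984–1.11]. That of core occipital to sham was then 0.935 [0.876–0.998], on the other side of 1. Core frontal over core occipital was 1.05 [0.986–1.12], and 1.12 [1.05–1.19] with TMM. Core frontal, the library with the largest total count, detected 257 of the 329 members, core occipital 233, penumbra 227 and sham 232. The detected members were 78.1%, 70.8%, 69.0% and 70.5% of all members, beside 69.3%, 66.4%, 69.1% and 67.7% of all circRNAs in the same order. In all 4 libraries 121 members were seen. Most were rare: 138 had under 5 counts over the 4 libraries, 29 occurred in 1 library, and 111 reached 10 counts.

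The counts were concentrated in few circles and few genes. The most abundant circle held 11.7% of the 8207 member counts, the top 4 held 30.7% and the top 12 held 48.3%. The top 10 hosts held 74.2%. Channel hosts had a median of 3 circles per gene and a highest number of 31, against a median of 2 over all 4807 protein-coding hosts.

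**Figure D1:**
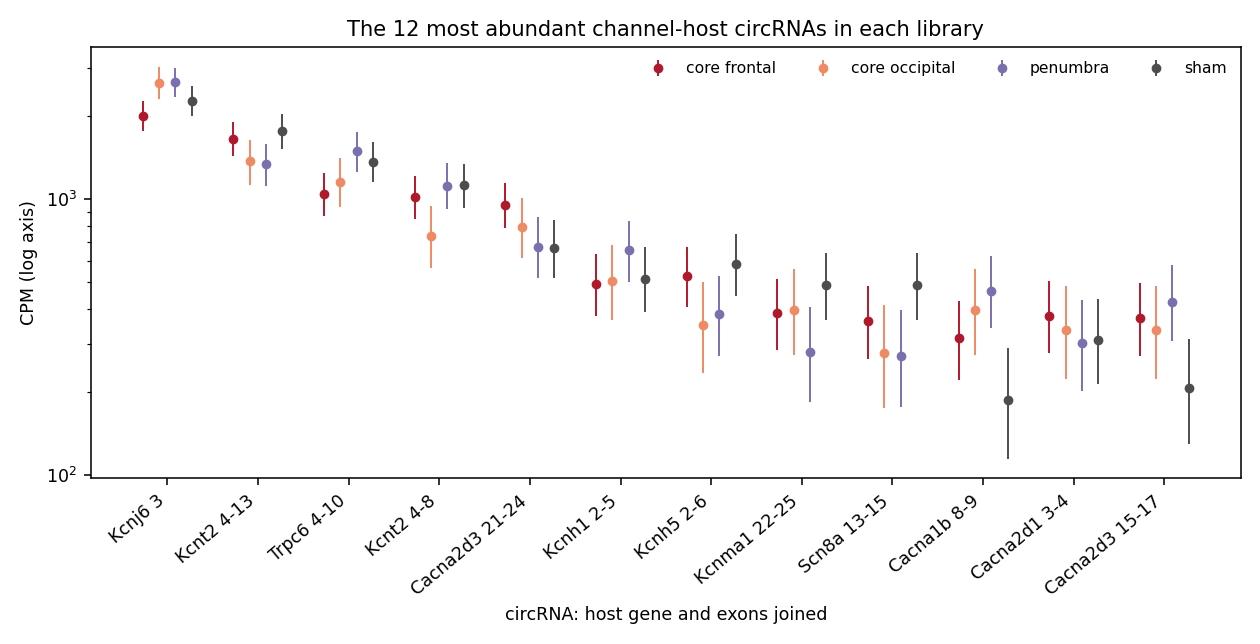
Level of the 12 most abundant circRNAs of channel genes. Points are CPM on a log axis for core frontal, core occipital, penumbra and sham, and bars are 95% Poisson intervals. Kcnj6 exon 3 is the highest in each library, and Cacna1b exons 8 to 9 and Cacna2d3 exons 15 to 17 are lowest in sham. Cacna2d3 exons 21 to 24 are also lowest in sham, with penumbra close above it.

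Among potassium channels, the inward rectifiers and 2-pore channels had 1 dominant circle. It is the single exon 3 of Kcnj6 (16:94832299-94833219, minus strand), 921 bases that are all coding, from the gene of a G protein-gated inward rectifier that lowers excitability when transmitter receptors are active. It had 244 counts in core frontal tissue, 220 in core occipital tissue, 256 in penumbra and 243 in sham, or 2010, 2648, 2657 and 2280 CPM. It was the most abundant channel circle in all 4 libraries and ranked between 19 and 32 among all circRNAs. Core frontal was the lowest library and the penumbra and core occipital were the highest. The ratio of penumbra to core frontal was 1.32 [1.10–1.58], with an adjusted Fisher's exact p of 0.0941. That circle held 99.8% of the Kcnj6 counts. In this class 3 of 29 genes had a circle, and their 9 circles held 14.7% of member counts.

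The other 2 hosts of the class, Kcnk10 and Kcnk2, encode background potassium channels that open at rest and on membrane stretch. Exons 5 to 7 of Kcnk2 (1:189242887-189258898, minus strand, 488 coding bases) gave a circle with 42 counts in core frontal tissue, 17 in core occipital tissue, 15 in penumbra and 13 in sham, or 346, 205, 156 and 122 CPM. Core frontal alone was high. Its ratio to sham was 2.84 [1.49–5.76] with an adjusted Fisher's exact p of 0.0530, just outside the threshold. With the least count raised to 30 over both libraries it was called (adjusted Fisher's exact p of 0.0267), because fewer circRNAs were then tested. It was then 1 of 33 circRNAs called in all. Its junction is given because it came nearest to a call in core frontal.
Kcnk2 exons 5 to 7: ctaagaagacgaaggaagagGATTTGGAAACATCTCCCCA

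The calcium- or sodium-activated potassium channels were the class with the most counts, 24.0% of the total, from 48 circles of 4 of 8 genes. Kcnt2, which encodes a sodium-activated potassium channel, was the channel gene with the highest circRNA count, and ranked 29 among all hosts. Its 22 circles summed to 456 counts in core frontal tissue, 252 in core occipital tissue, 350 in penumbra and 403 in sham, or 3756, 3033, 3633 and 3782 CPM. Core occipital was the lowest, at 0.802 [0.682–0.941] of sham with an adjusted Fisher's exact p of 0.146. Exons 4 to 13 (1:140362949-140450304, plus strand, 1019 bases) had 201 counts in core frontal tissue, 114 in core occipital tissue, 129 in penumbra and 188 in sham. Exons 4 to 8 (1:140362949-140383095, 363 bases) had 124, 61, 108 and 120 counts in the same order. The longer circle stood at 0.759 [0.602–0.955] of sham in penumbra and 0.778 [0.611–0.987] in core occipital, and the shorter one at 0.652 [0.471–0.894] of sham in core occipital. None of these passed the adjusted test.

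The acceptor of exon 4 was the common start of Kcnt2 circles. It opened 6 of the 22 circles and 83.9% of the counts, and this share was 82.7% in core frontal tissue, 82.5% in core occipital tissue, 82.9% in penumbra and 87.1% in sham. The circles that start there end at exon 8, 10, 12, 13, 14 or 21. Exon 9 was the next start, with 53 counts in core frontal tissue, 23 in core occipital tissue, 35 in penumbra and 25 in sham over 4 circles. The main circle of that group joins exons 9 to 13 and had 32, 11, 20 and 11 counts, 2.55 [1.25–5.62] times as high in core frontal as in sham by CPM (adjusted Fisher's exact p of 0.131). It shares its closing donor with exons 4 to 13, which was at 0.938 [0.765–1.15] of sham in the same library.

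Kcnma1, the pore of the large-conductance calcium-activated potassium channel, had 24 circles with 140, 85, 79 and 115 counts in core frontal, core occipital, penumbra and sham. Its main circle, exons 22 to 25 (14:23363801-23386353, minus strand), had 47, 33, 27 and 52 counts, and exons 4 to 9 (14:23526725-23591681) had 47, 27, 23 and 22. The first was lowest in penumbra, at 0.574 [0.347–0.931] of sham, and the second was highest in core frontal, at 1.88 [1.11–3.27] of sham. Neither difference passed the adjusted test.

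**Figure D2:**
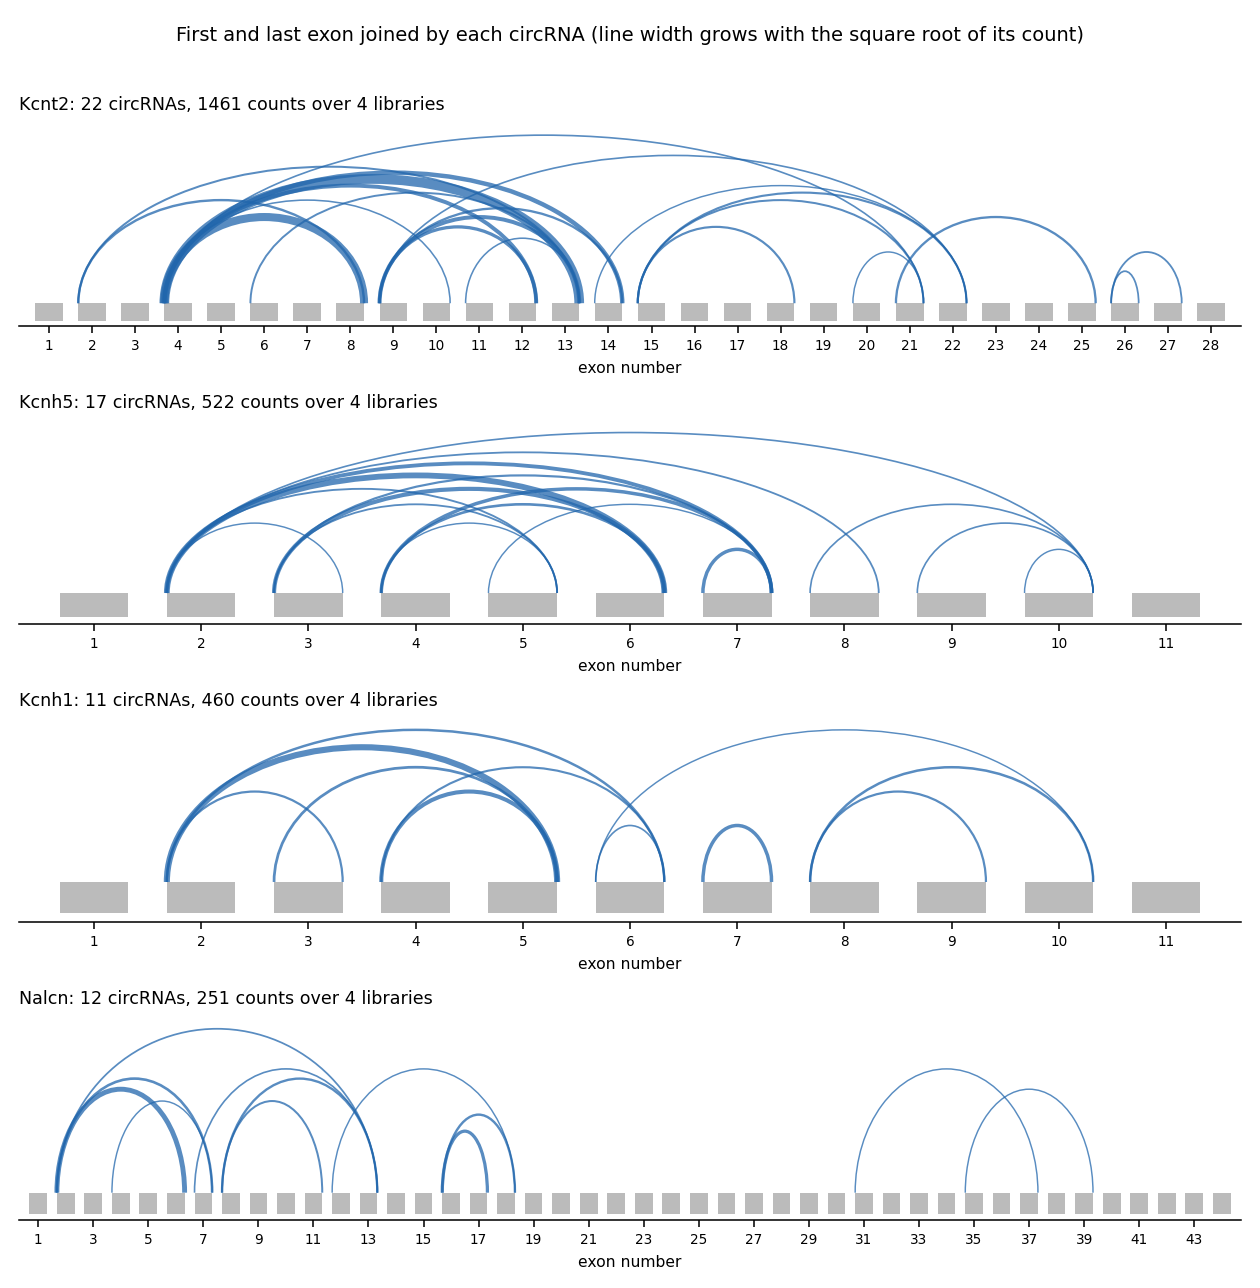
First and last exon joined by each circRNA of Kcnt2, Kcnh5, Kcnh1 and Nalcn. Grey boxes are exons by number, not to length, and each arc is 1 circRNA whose line width grows with the square root of its count over the 4 libraries; 1 circRNA of Nalcn, which lies on another transcript, is not drawn. Most counts of Kcnt2 leave from exon 4 and those of Kcnh1 and Kcnh5 from exons 2 to 4, and the last exon of each gene takes part in none of the arcs.

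In the voltage-gated potassium class, 12 of 40 genes had 67 circles and 18.2% of member counts. Kcnh5 and Kcnh1 encode the pair of ether-a-go-go channels, and both made their main circle from exon 2 onward. Exons 2 to 5 of Kcnh1 (1:192221333-192242037, plus strand, 479 bases) had 60, 42, 63 and 55 counts in core frontal, core occipital, penumbra and sham. The donor of Kcnh1 exon 5 closed 70.9% of that gene's counts. Exons 2 to 6 of Kcnh5 (12:75114191-75154281, minus strand, 869 bases) had 64 counts in core frontal tissue, 29 in core occipital tissue, 37 in penumbra and 62 in sham. Kcnh1 was level across libraries, whereas the main Kcnh5 circle was lower in core occipital and penumbra, at 0.600 [0.372–0.947] and 0.660 [0.427–1.01] of sham, without passing the adjusted test.

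One circle of Kcnh5 was called. Exons 4 to 7 (12:75087405-75131026, minus strand, 1065 coding bases) had 12 counts in core frontal tissue, 27 in core occipital tissue, 10 in penumbra and 4 in sham, or 98.9, 325, 104 and 37.5 CPM. Core occipital stood above the other 3 libraries, and sham was the lowest. The ratio of core occipital to sham was 8.66 [3.02–34.0], with an adjusted Fisher's exact p of 0.000804. Among the 64 members tested in this pair it was the 1 call, beside 0.467% of all 3424 circRNAs tested. The ratio of core frontal to core occipital was 0.304 [0.140–0.621] (adjusted Fisher's exact p of 0.0526), that of penumbra to core occipital 0.319 [0.138–0.681] (adjusted Fisher's exact p of 0.291). An edgeR exact test with an assumed coefficient of variation of 0.2 between pools gave this circle an adjusted p of 0.383 in core occipital against sham, and the call ended.

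The rise of that circle was not a rise of Kcnh5 circles as a whole. The 17 circles of the gene summed to 166 counts in core frontal tissue, 116 in core occipital tissue, 107 in penumbra and 133 in sham, with a ratio of core occipital to sham of 1.12 [0.864–1.45]. Exons 4 to 6 (12:75114191-75131026), which start at the same exon, had 1, 4, 8 and 10 counts, lowest in core frontal. The donor of exon 6 closed 59.0% of Kcnh5 counts in core frontal tissue, 39.7% in core occipital tissue, 62.6% in penumbra and 66.2% in sham. Circles closed by the donor of exon 7 had 61, 56, 34 and 35 counts over 5 circles. Within this gene the 2 closing sites therefore took different shares in core occipital, which is a description of these 4 libraries without a test. The exon 7 sum includes the called circle of exons 4 to 7, so these shares in part restate that call and are not a separate observation.

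Accessory potassium subunits gave 15 circles in 5 of 17 genes and 2.34% of counts. Exons 3 to 5 of Kcnip3, a calcium-binding protein of the Kv4 channel complex, led with 16 counts in core frontal tissue, 19 in core occipital tissue, 29 in penumbra and 20 in sham. The penumbra was the highest, at 2.28 [1.20–4.50] times core frontal with an adjusted Fisher's exact p of 0.148.

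Calcium channel hosts were higher in the MCAO libraries than in sham when their accessory subunits were summed. The 56 circles of 5 of 16 accessory genes had 401 counts in core frontal tissue, 280 in core occipital tissue, 303 in penumbra and 275 in sham, or 3303, 3370, 3145 and 2581 CPM. Sham was the lowest, with ratios of 1.28 [1.10–1.50] in core frontal tissue, 1.31 [1.10–1.55] in core occipital tissue and 1.22 [1.03–1.44] in penumbra, given as values because the class sum was not tested. Cacna2d3, an alpha2delta subunit that brings calcium channels to the membrane, made up most of it. Its 31 circles had 242 counts in core frontal tissue, 165 in core occipital tissue, 171 in penumbra and 150 in sham. The ratios to sham of the gene's sum were 1.42 [1.15–1.75], 1.41 [1.12–1.77] and 1.26 [1.01–1.58] in the same order, with adjusted Fisher's exact p of 0.0555 for core frontal, 0.0910 for core occipital and 0.399 for penumbra.

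The circles of Cacna2d3 did not move as 1. Exons 21 to 24 (14:29055887-29062540, minus strand, 306 bases) had 116, 66, 65 and 71 counts in core frontal, core occipital, penumbra and sham, and were highest in core frontal at 1.43 [1.06–1.96] of sham. Exons 15 to 17 (14:29097784-29105025, 228 bases) had 45, 28, 41 and 22 counts, and were highest in penumbra at 2.06 [1.20–3.63] of sham. Exons 14 to 17, closed by the same donor, had 3, 9, 8 and 1 counts. No circle of Cacna2d3 passed the adjusted test in any pair. Cacna2d1, the alpha2delta subunit that binds gabapentin, had 144, 100, 120 and 111 counts over 19 circles, led by exons 3 to 4 (5:16012394-16025865, plus strand) with 46, 28, 29 and 33. A second circle, exons 12 to 22 of Cacna2d1 (5:16299929-16333825), is named after its values were seen. It had 35 counts in penumbra and 17 in core frontal, with 16 in core occipital and 25 in sham, and a ratio of penumbra to core frontal of 2.59 [1.41–4.94] (adjusted Fisher's exact p of 0.0700).

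Among the pore-forming calcium alpha1 genes, 7 of 10 were hosts, with 60 circles and 8.54% of counts. Exons 8 to 9 of Cacna1b (2:24719045-24720056, minus strand), from the N-type calcium channel of nerve terminals, form the shortest of the 328 channel circles with a resolved exon structure, 173 coding bases. It had 38 counts in core frontal tissue, 33 in core occipital tissue, 45 in penumbra and 20 in sham, or 313, 397, 467 and 188 CPM. All 3 MCAO libraries were above sham. The ratio to sham was 1.67 [0.946–3.03] in core frontal tissue, 2.12 [1.18–3.89] in core occipital tissue and 2.49 [1.44–4.45] in penumbra, with adjusted Fisher's exact p of 0.394, 0.186 and 0.0798. With at least 30 counts asked for, the penumbra call was made (adjusted Fisher's exact p of 0.0378), and this circle was 1 of 8 circRNAs called in all. Its junction is shown as that of the member with the smallest p in penumbra against sham.
Cacna1b exons 8 to 9: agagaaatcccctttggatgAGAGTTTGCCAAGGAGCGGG

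**Figure D3:**
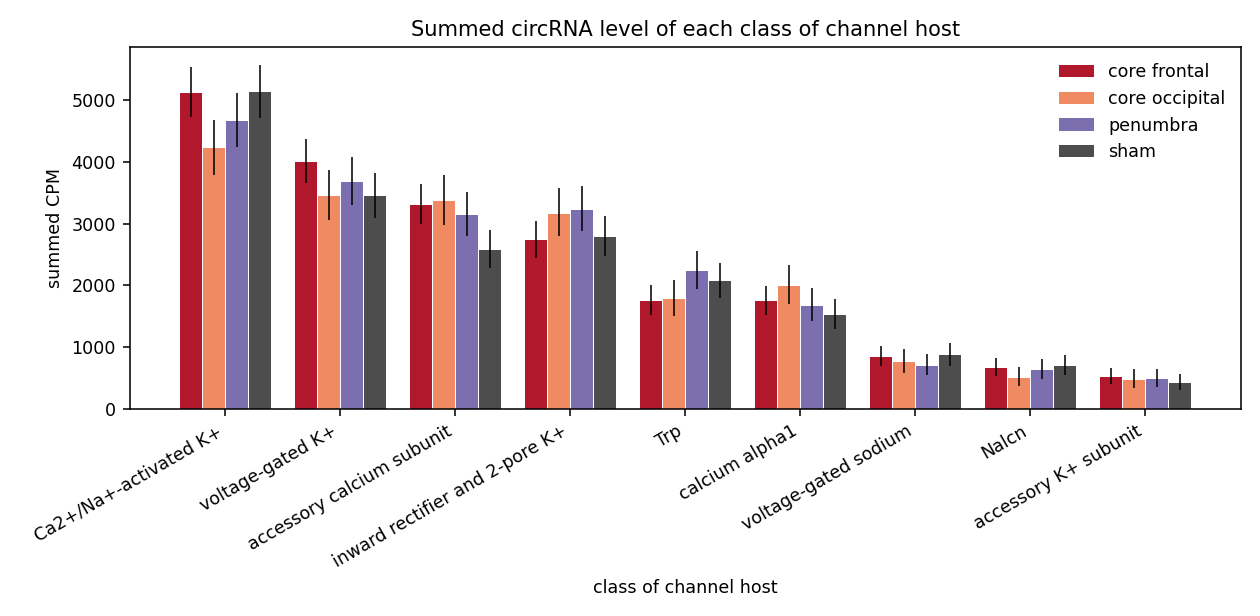
Summed circRNA level of 9 classes of channel gene. Bars are summed CPM from 0 for core frontal, core occipital, penumbra and sham, and lines are 95% Poisson intervals. The accessory calcium subunits are lowest in sham at 2581 CPM, while calcium- or sodium-activated potassium channels are lowest in core occipital at 4224 CPM.

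Sodium channels made few circles. Of the 10 alpha subunit genes 3 were hosts, with 22 circles and 3.95% of counts, and 0 of the 4 beta subunit genes. Exons 13 to 15 of Scn8a (15:101002034-101011190, plus strand, 546 bases), from the sodium channel of the axon's initial segment and nodes, had 44 counts in core frontal tissue, 23 in core occipital tissue, 26 in penumbra and 52 in sham. Sham was the highest library, and the ratios to it were 0.743 [0.486–1.13], 0.567 [0.331–0.943] and 0.553 [0.331–0.902] in the same order. Exon 2 of Scn8a (15:100936271-100936600), in part untranslated, had 3, 6, 9 and 1 counts and so ran the other way, at 9.95 [1.38–436] in penumbra against sham. Neither passed the adjusted test. The Scn8a sum was level, with 60, 41, 46 and 61 counts, and the share of exons 13 to 15 in it was 73.3% in core frontal tissue, 56.1% in core occipital tissue, 56.5% in penumbra and 85.2% in sham.

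Scn1a, a sodium channel of inhibitory neurons, is named after its values were seen. Its 4 circles had 6 counts in penumbra and 30 in core frontal, with 13 in core occipital and 20 in sham. Penumbra over core frontal gave a ratio of 0.252 [0.0857–0.615] with an adjusted Fisher's exact p of 0.0577. It was 0.0492 with DESeq2 size factors, 0.0365 with at least 30 counts and 0.0455 with circles of 1 exon-bounded end included.

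Nalcn gave 13 circles and 3.14% of counts, with 81 counts in core frontal tissue, 42 in core occipital tissue, 61 in penumbra and 74 in sham. The acceptor of exon 2 opened 62.8% of them, and exons 2 to 6 (14:123592682-123599989, minus strand) alone had 41, 21, 31 and 34 counts. That main circle was level, at 1.06 [0.655–1.72] of sham in core frontal. A rarer one was called. Exons 8 to 13 (14:123460237-123515773, minus strand, 827 coding bases) had 0 counts in core frontal tissue, 3 in core occipital tissue, 2 in penumbra and 11 in sham, or 0, 36.1, 20.8 and 103 CPM. Sham was the highest and core frontal had none.

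With 3 counts in place of the 0, exons 8 to 13 of Nalcn were 4.18-fold lower in core frontal than in sham. That fold rests on the substituted count and is not a bound, and the interval of the ratio ended at 0.350. The adjusted Fisher's exact p was 0.0423. It was the 1 call among 76 members tested in core frontal against sham, where 0.747% of all 4152 circRNAs tested were called. The ratio to sham was 0.350 [0.0627–1.32] in core occipital and 0.201 [0.0217–0.921] in penumbra. The call ended without a filter on low counts, and an edgeR exact test with an assumed coefficient of variation of 0.2 gave an adjusted p of 0.540.

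The same donor of Nalcn exon 13 was used by other circles in core frontal. Exons 2 to 13 had 5 counts there and 0 in each of the other libraries, and exons 7 to 13 had 4 there and 0 elsewhere. Over these 3 circles the donor had 9 counts in core frontal tissue, 3 in core occipital tissue, 2 in penumbra and 11 in sham. The call therefore concerns 1 junction of the gene, while the Nalcn sum was at 0.961 [0.692–1.34] of sham in core frontal.

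Trp channels gave 36 circles in 10 of 23 genes and 9.70% of counts, most of them from 1 circle of Trpc6, a cation channel opened by diacylglycerol. Its exons 4 to 10 (9:8634047-8658377, plus strand, 1356 coding bases) had 127 counts in core frontal tissue, 96 in core occipital tissue, 144 in penumbra and 146 in sham, or 1046, 1155, 1495 and 1370 CPM. The penumbra and sham were the higher libraries and the cores the lower ones. The ratio of penumbra to core frontal was 1.43 [1.12–1.83] (adjusted Fisher's exact p of 0.112) and that of core frontal to sham 0.764 [0.597–0.975] (adjusted Fisher's exact p of 0.271). This circle held 98.8% of Trpc6 counts, so the gene used in effect 1 pair of splice sites.

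Seen pair by pair, these 2 circles were the only calls among channel circles by Fisher's exact test. Penumbra against sham had 0 calls among 66 members (0.0538% of all), and 10 members had an unadjusted Fisher's exact p under 0.05 (11.3% of all). Penumbra against core frontal had 0 among 71 (0.934% of all) and 10 at the unadjusted threshold (12.8% of all). Penumbra against core occipital had 0 among 68 (0.0606% of all) and 5 (7.03% of all), and core frontal against core occipital 0 among 74 (0.344% of all) and 8 (11.8% of all). For core frontal against sham 13 of 76 members reached the unadjusted threshold (14.2% of all), and for core occipital against sham 9 of 64 (12.6% of all). The edgeR exact test with an assumed coefficient of variation of 0.2 called 0 members in all 6 pairs, and at most 1 circRNA of all those tested in a pair.

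Counting instead the members whose 95% interval of the ratio left out 1 gave 10 of 76 in core frontal against sham, 7 higher and 3 lower, beside 12.5% of all circRNAs tested. It gave 9 of 64 in core occipital against sham, 4 higher and 5 lower, beside 11.2%, and 9 of 66 in penumbra against sham, 4 higher and 5 lower, beside 9.39%. Between the MCAO libraries it gave 9 of 71 for penumbra against core frontal, beside 11.2%, 5 of 68 for penumbra against core occipital, beside 5.76%, and 7 of 74 for core frontal against core occipital, beside 10.4%. Channel circles thus left the value of 1 about as often as circRNAs at large. The median ratio of the tested members was 1.16 in core frontal tissue, 1.07 in core occipital tissue and 1.11 in penumbra against sham, beside 1.02, 0.962 and 1.01 over all circRNAs tested. Members with a ratio above 1 numbered 42 of 76 in core frontal, 35 of 64 in core occipital and 37 of 66 in penumbra. Over all circRNAs tested the shares above 1 were 52.1%, 46.9% and 50.4%. With TMM scaling, which lowers all ratios of core occipital to sham by 0.11 on the log2 scale, those above 1 in core occipital were 31 of 64.

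Summed by gene, 0 channel hosts were called in any pair. For core frontal against sham this was 0 of 33 hosts tested (0.615% of all hosts), and 4 had an unadjusted Fisher's exact p under 0.05 (13.9% of all hosts). For core occipital against sham it was 0 of 32 (1.15%) and 4 (13%), and for penumbra against sham 0 of 33 (0.0859%) and 4 (11.3%). Between the MCAO libraries it was 0 of 34 (0.583%) and 7 (14%) for penumbra against core frontal, 0 of 33 (0.0911%) and 3 (7.19%) for penumbra against core occipital, and 0 of 34 (0.431%) and 4 (13.5%) for core frontal against core occipital. The edgeR exact test also called 0 channel hosts, and at most 1 host of all those tested in a pair.

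**Figure D4:**
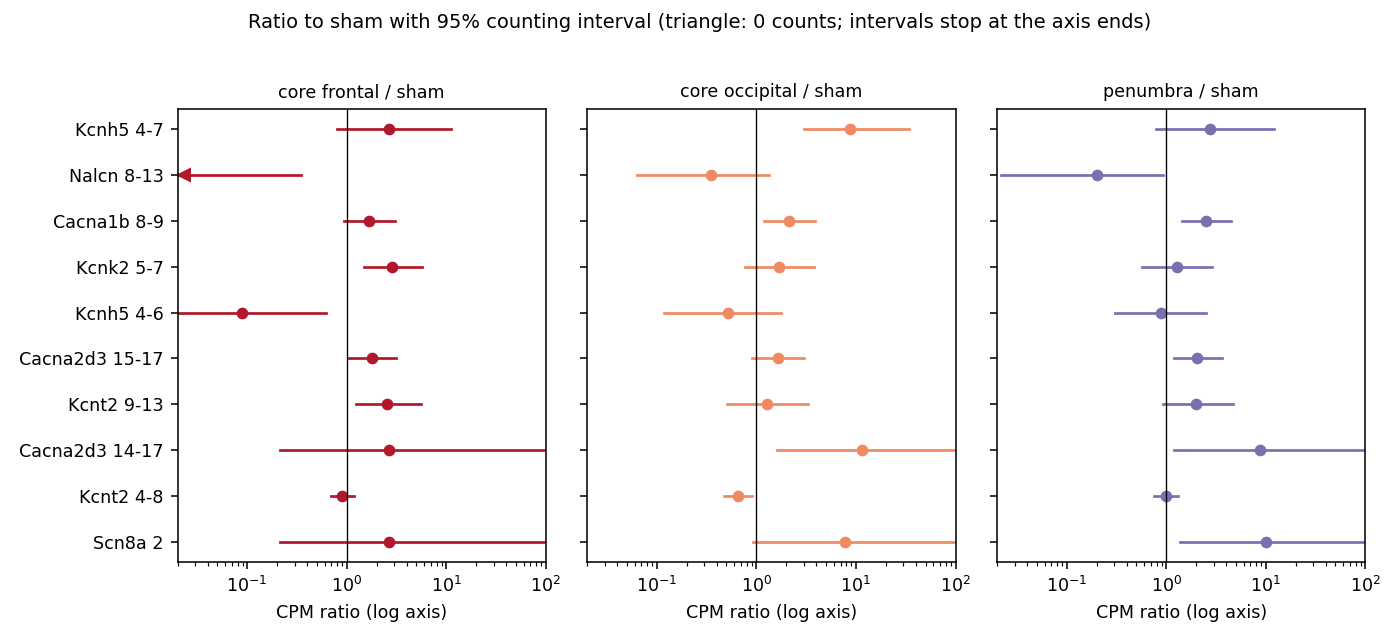
CPM ratio to sham of the 10 tested members with the smallest Fisher's exact p against sham, for core frontal, core occipital and penumbra. Points are ratios on a log axis, lines are 95% counting intervals that stop at the axis ends, the vertical line is at 1 and the triangle is a count of 0. Kcnh5 exons 4 to 7 lie farthest above 1 in core occipital at 8.66 among circles with more than 1 count in sham, and Nalcn exons 8 to 13 lie below 1 in all 3 panels.

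The introns around channel circles were longer in the median than those around other circles, with a wide overlap. The intron before the first exon had a median of 17460 bases over members, against 8342 over all circRNAs of protein-coding hosts, and the intron after the last exon 12645 against 6703. The quartiles of the intron before the first exon were 5332 and 41982 bases over members, against 3149 and 21750 over all. With 1 circle per host, the most abundant, the medians were 22174 and 7339 bases before, and 11639 and 5521 bases after. By the annotated exons between their ends, the circles themselves were of ordinary size. The median was 4 exons in both sets, and the median spliced length was 607 bases against 543. Their GC content had a median of 47.7% against 47.6%. Members were fully coding in 92.4% of cases against 82.7%, and began at exon 2 in 15.5% against 23.9%. With 1 circle per host, the fully coding share was 88.2% against 77.9%. The share that began at exon 2 was then 31.4% against 34.3%, so most of that difference was gone. These medians are descriptions, since circles of 1 gene share introns and exons.

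**Figure D5:**
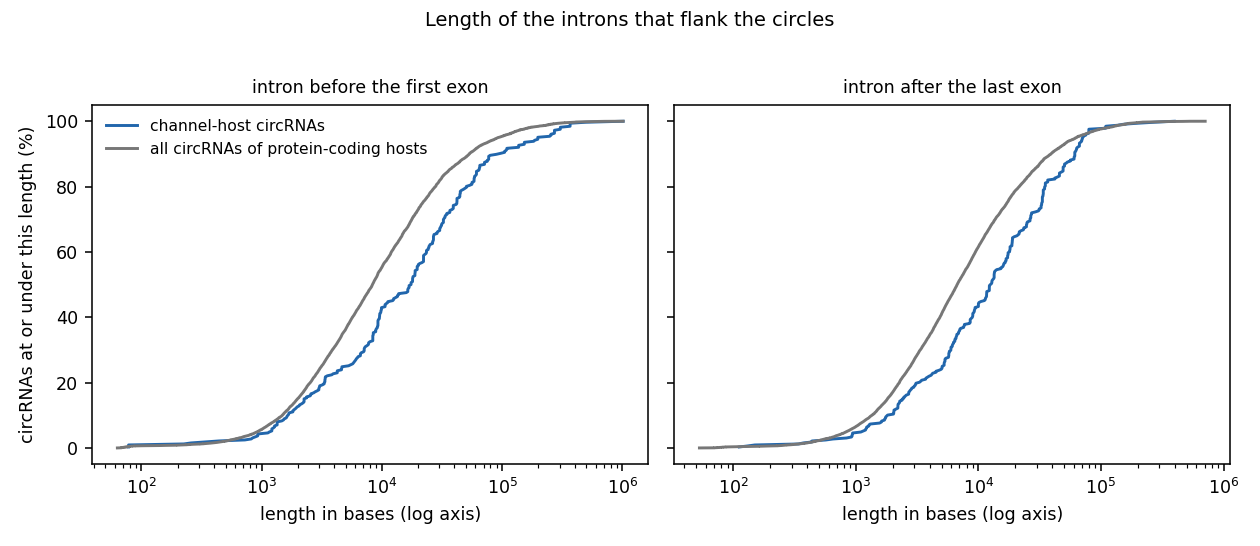
Lengths of the introns flanking the circles. Curves give the percent of circRNAs at or under each length on a log axis, for circRNAs of channel genes and for all circRNAs of protein-coding hosts, before the first exon on the left and after the last exon on the right. The curve of the channel circles runs to the right of the other over most of the range, with a median of 17460 bases before the first exon against 8342.

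Related channel genes also made circles from matching exons. Pairs of members from the same gene family with the same number of exons and the same spliced length were compared base by base, with an identity of at least 50%, a limit and a choice of pairs made after the values were seen. Pairs from 3 families are described here. Exons 2 to 3 of Kcnq3 (15:66030519-66031470) and Kcnq5 (1:21535061-21593614), both subunits of M-current channels, are 218 bases each and 59.6% identical, with 15, 7, 12 and 7 counts for Kcnq3 and 8, 6, 11 and 2 for Kcnq5 in core frontal, core occipital, penumbra and sham. Exons 3 to 5 of Kcnip3 (2:127465048-127465978) and Kcnip4 (5:48409795-48482655) are 266 bases each and 71.8% identical. The annotated exons of these pairs are shown from first to last exon, in lower case where the pair has the same base and in capitals where it differs. Only the junctions of these circles were observed.
Kcnq3 exons 2 to 3: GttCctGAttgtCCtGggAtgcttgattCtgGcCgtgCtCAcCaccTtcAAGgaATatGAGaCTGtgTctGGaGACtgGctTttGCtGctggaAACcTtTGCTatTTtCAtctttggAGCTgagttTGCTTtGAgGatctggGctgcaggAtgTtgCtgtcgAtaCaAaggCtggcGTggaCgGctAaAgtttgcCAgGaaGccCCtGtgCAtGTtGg
Kcnq5 exons 2 to 3: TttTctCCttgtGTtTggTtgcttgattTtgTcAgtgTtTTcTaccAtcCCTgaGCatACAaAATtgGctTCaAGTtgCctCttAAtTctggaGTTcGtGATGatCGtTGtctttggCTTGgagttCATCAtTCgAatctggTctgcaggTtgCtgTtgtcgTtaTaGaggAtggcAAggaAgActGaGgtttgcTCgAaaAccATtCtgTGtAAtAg
Kcnip3 exons 3 to 5: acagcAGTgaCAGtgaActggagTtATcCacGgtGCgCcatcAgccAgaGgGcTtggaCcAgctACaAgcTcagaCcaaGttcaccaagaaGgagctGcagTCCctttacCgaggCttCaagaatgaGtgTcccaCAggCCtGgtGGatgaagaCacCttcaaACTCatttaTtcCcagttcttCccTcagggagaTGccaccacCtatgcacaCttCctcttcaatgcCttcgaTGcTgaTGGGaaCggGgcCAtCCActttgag
Kcnip4 exons 3 to 5: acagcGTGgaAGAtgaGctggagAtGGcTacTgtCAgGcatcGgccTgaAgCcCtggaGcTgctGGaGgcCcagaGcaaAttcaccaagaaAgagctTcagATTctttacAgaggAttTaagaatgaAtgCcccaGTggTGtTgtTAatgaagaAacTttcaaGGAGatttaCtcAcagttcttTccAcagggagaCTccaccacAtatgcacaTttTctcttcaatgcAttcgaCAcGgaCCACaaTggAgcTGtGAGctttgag
Kcnh1 and Kcnh5 matched at exons 8 to 10 (650 bases, 80.2% identical, 20 and 4 counts over the 4 libraries) and at exons 2 to 3 (231 bases, 74.9% identical, 13 and 2 counts). Matching exons did not mean matching levels, as the circle of Kcnip3 had 84 counts over the 4 libraries and that of Kcnip4 had 24.

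Partners of these channels that the symbol rule leaves out were also hosts. Of 21 listed genes for auxiliary proteins of Nalcn, Kv4, sodium, calcium and other channels, 11 were hosts, with 127 circles, of which between 20 and 24 were tested in a pair. In each pair 0 of these circles and 0 of 9 hosts tested were called, beside between 0.0538% and 0.934% of all circRNAs and between 0.0859% and 1.15% of all hosts, so that the counts of 0 say little about the list. Their most abundant host was Unc79, which encodes a scaffold of the Nalcn complex. The summed level of the list was 5025 CPM in core frontal tissue, 4971 in core occipital tissue, 5688 in penumbra and 5537 in sham. Against sham, 11 of 23 tested circles were above 1 in core frontal, 9 of 20 in core occipital and 13 of 22 in penumbra. The shares over all circRNAs tested were 52.1%, 46.9% and 50.4%.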

How the data were processed

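The authors deposited whole-number back-splice read counts for each circRNA in 4 libraries, without normalization, and an FPKM table of the same circRNAs. The deposited FPKM was the count over span and library total, and was not used further. Per the labels' protocols, ribosomal RNA was removed from 2 ug of RNA; the labels name a TruSeq kit and a directional NEBNext kit. TopHat2 2.0.10, Bowtie and mm9 are named per the submitters' processing notes; the circRNA caller is not given in the sources used here. The coordinates were on GRCm38: 89.1% of starts lay on GENCODE M21 exon boundaries, against 0.192% when moved by 1 base. The table has no strand, and hosts were assigned by splice sites. Another protein-coding gene overlaps 8 hosts, Cacna2d3 and Kcnh1 among them, but 0 members matched exon boundaries of more than 1 protein-coding gene at both ends.

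Libraries were placed in groups by their tissue and treatment labels. For each of the 6 pairs, Fisher's exact test (two-sided, SciPy 1.17.1) set each circRNA with at least 10 counts over both libraries, or each host's sum, against the rest of the library's circRNA count. Benjamini-Hochberg adjustment ran over all circRNAs or hosts tested, and circles were called at an adjusted p under 0.05 with a CPM ratio of 2 or more in either direction. CPM carry Poisson intervals, ratios exact conditional (Clopper-Pearson) intervals and shares Clopper-Pearson intervals, all at 95%. The alternatives were TMM (edgeR 4.0.16) and DESeq2 1.42.0 size factors, no filter or at least 30 counts, removal of a GC trend, an edgeR exact test with an assumed coefficient of variation of 0.2, an edgeR quasi-likelihood test with both cores as 1 group, circles with 1 end on a boundary, and leaving out the most abundant circle. Scaled and GC-corrected counts were tested with an exact binomial test. The form of the GC trend (quadratic), that test, the splice site shares, the count of intervals that leave out 1 and the comparison of related genes were set after the files were seen. The test was checked on simulated counts with balanced changes in both directions; in a first simulation with changes in 1 direction alone, totals shifted and unchanged circRNAs were called too.

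The members and the gene lists were chosen with earlier results of these data known. Named circles are those called in any pair, the 12 most abundant, the most abundant of each class, and the 10 with the smallest p against sham; named hosts are the 10 with the highest sums. Other circles given with values (of Kcnma1, Cacna2d1, Nalcn, Kcnt2 and Scn1a, and the related pairs) were chosen after their values were seen. Junctions beyond the called and the 3 most abundant circles were added after values were seen. Some items that these rules would name are not reported here.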

Additional observations from a re-analysis of the deposited data

How the results depend on the processing

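No paired analysis was possible because there is 1 library per group, and for the same reason no replicate could be left out. Neither called circle changed direction under an alternative that tested it. Ratios near 1 that passed no test did cross 1 in some settings, those of some single circles among them. The share ratio of core occipital to sham, 1.01 as reported, was 0.935 with TMM, 0.999 with DESeq2 size factors, 0.999 with circles of 1 end included and 0.991 without the most abundant circle, and that of penumbra to core frontal, 0.985 as reported, was 1.01 with TMM and 1.00 with circles of 1 end included. Calls among channel circles numbered 1 in core frontal against sham and 0 without a filter on low counts, 0 with edgeR's exact test with dispersion from a coefficient of variation of 0.2 (5 of 76 at an unadjusted p under 0.05, beside 273 of all 4152) and 0 with the edgeR quasi-likelihood fit that joins the cores (3 of 111, beside 341 of all 6736). In core occipital against sham they numbered 1, and 0 in those 2 edgeR tests (2 of 64, beside 164 of all 3424, and the same 3 of 111). With at least 30 counts, 1 was called in penumbra against sham (Cacna1b exons 8 to 9), of 8 circRNAs called in all. In penumbra against core frontal Cacna2d1 exons 12 to 22 were then called, of 31 in all, and also with the GC trend removed, of 29 in all. In core frontal against core occipital 1 was called at that limit, of 18 in all. It was Kcnh5 exons 4 to 7, lower in core frontal (ratio 0.304, adjusted Fisher's exact p of 0.0209). In core frontal against sham Kcnk2 exons 5 to 7 were called with at least 30 counts, of 33 in all. Nalcn exons 8 to 13, with too few counts, were not tested there. Fewer circRNAs are tested at that limit. Scn1a was the 1 channel host called in penumbra against core frontal with DESeq2 size factors, with at least 30 counts and with circles of 1 end included. In those settings 17, 19 and 21 of all hosts were called. With TMM, without a filter and in the edgeR exact test 0 channel hosts were called in that pair. TMM factors moved the share ratio of penumbra to core occipital to 1.13 [1.06–1.20], against 1.03 [0.968–1.10]. That of core frontal to core occipital, 1.05 as reported, was 1.12 [1.05–1.19] with TMM and 1.07 [1.002–1.14] with DESeq2 size factors. It was 1.09 [1.02–1.17] without the most abundant circle and 1.05 [0.986–1.11] with circles of 1 end included. Kcnh5 exons 4 to 7 were called in core occipital against sham with TMM, DESeq2 size factors, no filter, at least 30 counts and GC removal, at ratios between 8.01 and 8.91, and Nalcn exons 8 to 13 in core frontal with TMM, DESeq2 size factors and GC removal. A tally was made for the circles given by the naming rule, which leaves out Cacna2d1 exons 12 to 22 and the Scn1a sum. It covers TMM, DESeq2 size factors, GC removal and at least 30 counts, where a circle was tested. In it 442 alternative values stayed on their side of the threshold, and 3 passed it, all with at least 30 counts. The edgeR tests, in which both calls ended, and the setting without a filter, in which that of Nalcn ended, are not in this tally. Depth limits all of this: 111 of 329 members reached 10 counts over the 4 libraries.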

Other observations

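Other ion-handling genes of the brain were read in the same way, from lists chosen with earlier results known. Of 22 genes for ion pumps, exchangers and calcium release channels, 17 were hosts, with 108 circles and a summed 11113 CPM in core frontal tissue, 11662 in core occipital tissue, 10441 in penumbra and 8906 in sham. Sham was the lowest, and Slc8a1, the sodium-calcium exchanger, was the most abundant host, with 728, 520, 505 and 504 counts. Its ratio to sham was 1.27 [1.13–1.42] in core frontal (adjusted Fisher's exact p of 0.0113) and 1.32 [1.17–1.50] in core occipital (adjusted Fisher's exact p of 0.00161). Both passed the p threshold but not the 2-fold limit of a call. That p threshold was passed by 30 of all 2439 hosts in core frontal against sham and 49 of all 2254 in core occipital against sham. In each comparison with sham, 13 hosts of the list were tested, and the 1 host called, higher in penumbra, was the calcium pump gene Atp2b2 (ratio 2.42 [1.66–3.58], adjusted Fisher's exact p of 0.00212, beside 0.0859% of all hosts). Of 15 circles of the list tested in penumbra against sham, that of Atp2b2 exons 11 to 13 was the 1 called. Its ratio was 2.54 [1.68–3.92], with an adjusted Fisher's exact p of 0.00478, beside 0.0538% of all circRNAs called. In this pair the edgeR exact test with an assumed coefficient of variation of 0.2 called 0 of all hosts and 0 of all circRNAs.

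Of 36 ligand-gated channel genes, the receptors that open on glutamate, GABA and other transmitters, 28 were hosts, with 114 circles at 5528 CPM in core frontal tissue, 4670 in core occipital tissue, 5055 in penumbra and 4842 in sham. Between 20 and 28 of these circles were tested in a pair by Fisher's exact test and 0 were called, beside between 0.0538% and 0.934% of all circRNAs, so that a count of 0 says little about the list. Grin2b, an NMDA receptor subunit, was the most abundant, with 140, 93, 110 and 118 counts, and was level across libraries by CPM.

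Among circles with 1 end alone on an exon boundary, which enter the comparisons only as an alternative, the most abundant was one of Kcnh7 with 8, 4, 13 and 7 counts in core frontal, core occipital, penumbra and sham.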
